A study of Mus musculus with 20 samples.

Results

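The mu-class glutathione S-transferases of the mouse are the products of 7 genes, *Gstm1* to *Gstm7*, that lie side by side on chromosome 3. They are described here in the livers of mice deprived of cysteine, tryptophan or GSH. The members were taken by symbol: each of the 7 is a row of the table of counts, which holds 46078 Ensembl genes, and all 7 had enough counts to be tested.

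Glutathione S-transferases join the thiol of glutathione (GSH) to electrophilic compounds, which makes these compounds more soluble and allows them to be exported from the cell. The mu-class enzymes are dimers of the cytosol. They are abundant in rodent liver, where *Gstm1* in particular is known as a gene that is induced through NRF2, the transcription factor of the oxidative stress response, and through nuclear receptors that sense foreign compounds. *Gstm5* is known mainly from testis and brain.

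Livers of 20 male mice were compared, each as 1 library of polyadenylated RNA. All mice came from a line in which *Cse* (listed as *Cth*), the gene for cystathionine γ-lyase, is deleted in every tissue, on a 129/C57BL/6 background, and were at least 9 weeks old. The sample labels call the control genotype WT, whereas the list of mice of the study calls it heterozygous, and it is written Cse+/- here. Every mouse was first held on a restricted amount of control diet for 3 days and then received the same restricted amount of its own diet for 2 days. Cse+/- mice received the control diet (n = 2, av21 and av22), the no-Trp diet (n = 3, av17, av19 and av20) or the no-Cys diet (n = 4, av01 to av04). Cse-/- mice received the no-Trp diet (n = 3, av14 to av16), the no-Trp diet together with BSO (n = 4, av09 to av12) or the no-Cys diet (n = 4, av05 to av08). BSO (L-buthionine sulfoximine) inhibits the enzyme of the first step of GSH synthesis. Cse-/- mice cannot make cysteine, so that the no-Cys diet removes their source of it. Cse-/- livers on the control diet and Cse+/- livers with BSO were not analysed here.

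Total counts per library ranged from 11785740 to 57986121, and the 7 genes together took 10934 to 255676 counts per library. Levels are given as CPM, the counts of a gene relative to all counts of its library after scaling with TMM factors. *Cth* lay between 6.37 and 14.4 CPM in the 11 Cse-/- livers and between 88.4 and 332 CPM in the 9 Cse+/- livers. The defining hepatocyte gene *Alb* lay between 25507 and 87978 CPM in all livers, whereas of the pancreas markers *Prss2* was at 0 in 19 of 20 libraries and *Cela2a* reached at most 1.13 CPM.

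The 7 genes span 149.1 kb of GRCm38, in the order *Gstm5*, *Gstm7*, *Gstm6*, *Gstm3*, *Gstm2*, *Gstm1* and *Gstm4*. *Gstm5* (ENSMUSG00000004032, chr3:107895821-107898686) is on the plus strand. The others are on the minus strand: *Gstm7* (ENSMUSG00000004035) at chr3:107926334-107931817, *Gstm6* (ENSMUSG00000068762) at chr3:107938847-107943749, *Gstm3* (ENSMUSG00000004038) at chr3:107963696-107969283, *Gstm2* (ENSMUSG00000040562) at chr3:107981702-107986453, *Gstm1* (ENSMUSG00000058135) at chr3:108012255-108017973 and *Gstm4* (ENSMUSG00000027890) at chr3:108040408-108044894. Each has 8 coding exons, and the coding sequence is 654 bases long in all but *Gstm5*, where it is 672.

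Because the members are copies of one another, reads can be counted only where the copies differ. The first 61 bases of the fifth coding exon, as long as 1 read end of this study, show where the members differ, although the word of *Gstm2* occurs in 2 genes. They are printed here 5′ to 3′ on the coding strand from the GENCODE transcripts, with each base that differs from *Gstm1* in capitals.
Gstm1: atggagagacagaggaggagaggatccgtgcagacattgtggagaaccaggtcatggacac
Gstm2: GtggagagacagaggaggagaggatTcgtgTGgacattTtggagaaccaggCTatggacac
Gstm3: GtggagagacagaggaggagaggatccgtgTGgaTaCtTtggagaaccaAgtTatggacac
Gstm4: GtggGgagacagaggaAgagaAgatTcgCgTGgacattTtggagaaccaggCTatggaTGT
Gstm5: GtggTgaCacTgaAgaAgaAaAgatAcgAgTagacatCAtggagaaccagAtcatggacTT
Gstm6: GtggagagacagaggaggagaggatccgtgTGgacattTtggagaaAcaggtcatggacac
Gstm7: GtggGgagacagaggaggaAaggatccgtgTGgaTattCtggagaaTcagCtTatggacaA

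In this window *Gstm6* differed from *Gstm1* at 5 bases, *Gstm2* at 7, *Gstm3* at 8, *Gstm7* at 11, *Gstm4* at 14 and *Gstm5* at 16. The window lies on the minus strand at chr3:108016368-108016428 in *Gstm1* and at chr3:107967615-107967675 in *Gstm3*. Over the whole coding sequence, *Gstm1* and *Gstm3* were the closest pair, with 89.4% identical bases, and *Gstm5* was the most distant member, with 68.2% to 71.1% identity to the others. Of all 61-base words in the transcripts of a gene, 25.7% in *Gstm3*, 15.2% in *Gstm1*, 8.56% in *Gstm5*, 4.37% in *Gstm6* and 3.69% in *Gstm2* also occurred in another gene, and no word of *Gstm4* or *Gstm7* did. *Gstm1* shared 98 words with *Gstm3*, 78 with Gm8834 and 169 with *Gstm2-ps1*, a processed pseudogene on chromosome 5. *Gstm3* shared 166 words with Gm8834 and 117 with *Gstm2-ps1*. The shared words of *Gstm5* were all those of the antisense gene 4933431E20Rik that overlaps it, and the library kit does not mark strand, so that reads of this pair cannot be told apart there. Values of *Gstm3* and *Gstm1* are therefore less certain than those of *Gstm4* and *Gstm7*, and a sum over the 7 genes is given beside them. The sum does not recover reads that counting left out because they fit several genes, within the family or outside it.

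*Gstm1* gave most of the family's RNA in every liver. Per kilobase of annotated exons, a scale on which levels of different genes can be compared roughly, *Gstm1* was at 564 ± 65.1 CPM per kilobase (SD, n = 2) in Cse+/- control livers. *Gstm6* (29.1 ± 4.39), *Gstm7* (28.9 ± 3.60), *Gstm2* (22.9 ± 1.49), *Gstm4* (17.2 ± 0.0259) and *Gstm3* (15.1 ± 2.24) followed at far lower levels on the same scale, and *Gstm5* was the lowest (5.28 ± 0.550). The scale does not allow for reads lost to shared words, of which *Gstm3* has the largest share and *Gstm4* none. The place of *Gstm3* below *Gstm4* is therefore uncertain. In the Cse-/- no-Cys livers the order on this scale was different: after *Gstm1* (2212 ± 411 CPM per kilobase, SD, n = 4) came *Gstm3* (150 ± 65.7), *Gstm4* (82.5 ± 19.2) and *Gstm2* (62.6 ± 15.1), ahead of *Gstm6* (28.2 ± 4.52) and *Gstm7* (27.7 ± 7.68).

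The first comparison asked how cysteine deprivation bears on the family, with Cse-/- and Cse+/- livers on the same no-Cys diet. *Gstm1*, *Gstm2*, *Gstm3* and *Gstm4* rose 2.48-fold to 5.48-fold in the Cse-/- livers, and *Gstm5*, *Gstm6* and *Gstm7* did not pass the test. Of the 7 members, 4 were thus called higher, against 11.6% of all 14759 tested genes, and 0 were called lower, against 12.2% (edgeR quasi-likelihood test, Benjamini-Hochberg adjusted p under 0.05; 4 higher and 0 lower also at a raw p under 0.05 and by DESeq2). For the same 4 members the groups did not overlap, which held for 12.0% of all tested genes. The median log2 fold change was 1.31 over the members and -0.01 over all tested genes.

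*Gstm1*, the major mu-class gene of mouse liver, was at 848, 999, 720 and 1188 CPM in the Cse+/- no-Cys livers av01 to av04. It was at 3061, 3834, 3642 and 2496 CPM in the Cse-/- no-Cys livers av05 to av08. Every Cse-/- liver was above every Cse+/- liver, and av08 was the lowest of its group. The fitted change was 3.47-fold (95% interval 2.46 to 4.89, log2 fold change 1.80 ± 0.24 SE, edgeR adjusted p = 3.43e-05).

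*Gstm3*, the closest copy of *Gstm1*, was at 36.2, 39.5, 22.8 and 44.9 CPM in av01 to av04 and at 148, 301, 231 and 108 CPM in av05 to av08. Among the members this was the largest fitted change, 5.48-fold (3.33 to 9.03, log2 fold change 2.46 ± 0.34 SE, edgeR adjusted p = 6.02e-05), and the widest spread, with a coefficient of variation of 43.8% in the Cse-/- no-Cys group. The groups did not overlap.

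*Gstm4*, whose transcripts share no 61-base word with another gene, was at 33.3, 46.1, 43.9 and 61.8 CPM in av01 to av04 and at 123, 182, 151 and 107 CPM in av05 to av08. It rose 3.04-fold (2.28 to 4.06, edgeR adjusted p = 1.80e-05), with no overlap of the groups. *Gstm2* was at 47.4, 38.3, 30.02 and 53.7 CPM in the Cse+/- livers and at 89.5, 135, 117 and 79.2 CPM in the Cse-/- livers, a rise of 2.48-fold (1.88 to 3.26, edgeR adjusted p = 8.10e-05). Here too the lowest Cse-/- liver, av08, was above the highest Cse+/- liver, av04. In the Cse-/- no-Cys group the 4 rising genes, and also *Gstm5*, ranked the livers in the same order: av06, av07, av05 and then av08. In the Cse+/- no-Cys livers the 4 genes did not share 1 order.

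The other members did not pass the test, and their groups overlapped. *Gstm6* was at 49.4 to 71.7 CPM in the Cse+/- and 44.4 to 63.2 CPM in the Cse-/- no-Cys livers, a fitted ratio of 0.910 (95% interval 0.738 to 1.12, edgeR adjusted p = 0.527). *Gstm7* was at 37.9, 51.5, 45.4 and 47.9 CPM in av01 to av04 and at 41.8, 35.9, 37.2 and 62.3 CPM in av05 to av08, a ratio of 0.968 (0.793 to 1.18, edgeR adjusted p = 0.843). The liver av08, lowest in *Gstm1* to *Gstm4*, was the highest in *Gstm7*. *Gstm5*, with only 40 to 255 counts per library, had a ratio of 0.755 (0.530 to 1.08, edgeR adjusted p = 0.246). The upper bounds of these 3 intervals, up to 1.18, lie below the lowest bound of the 4 rising genes, 1.88.

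**Figure D1:**
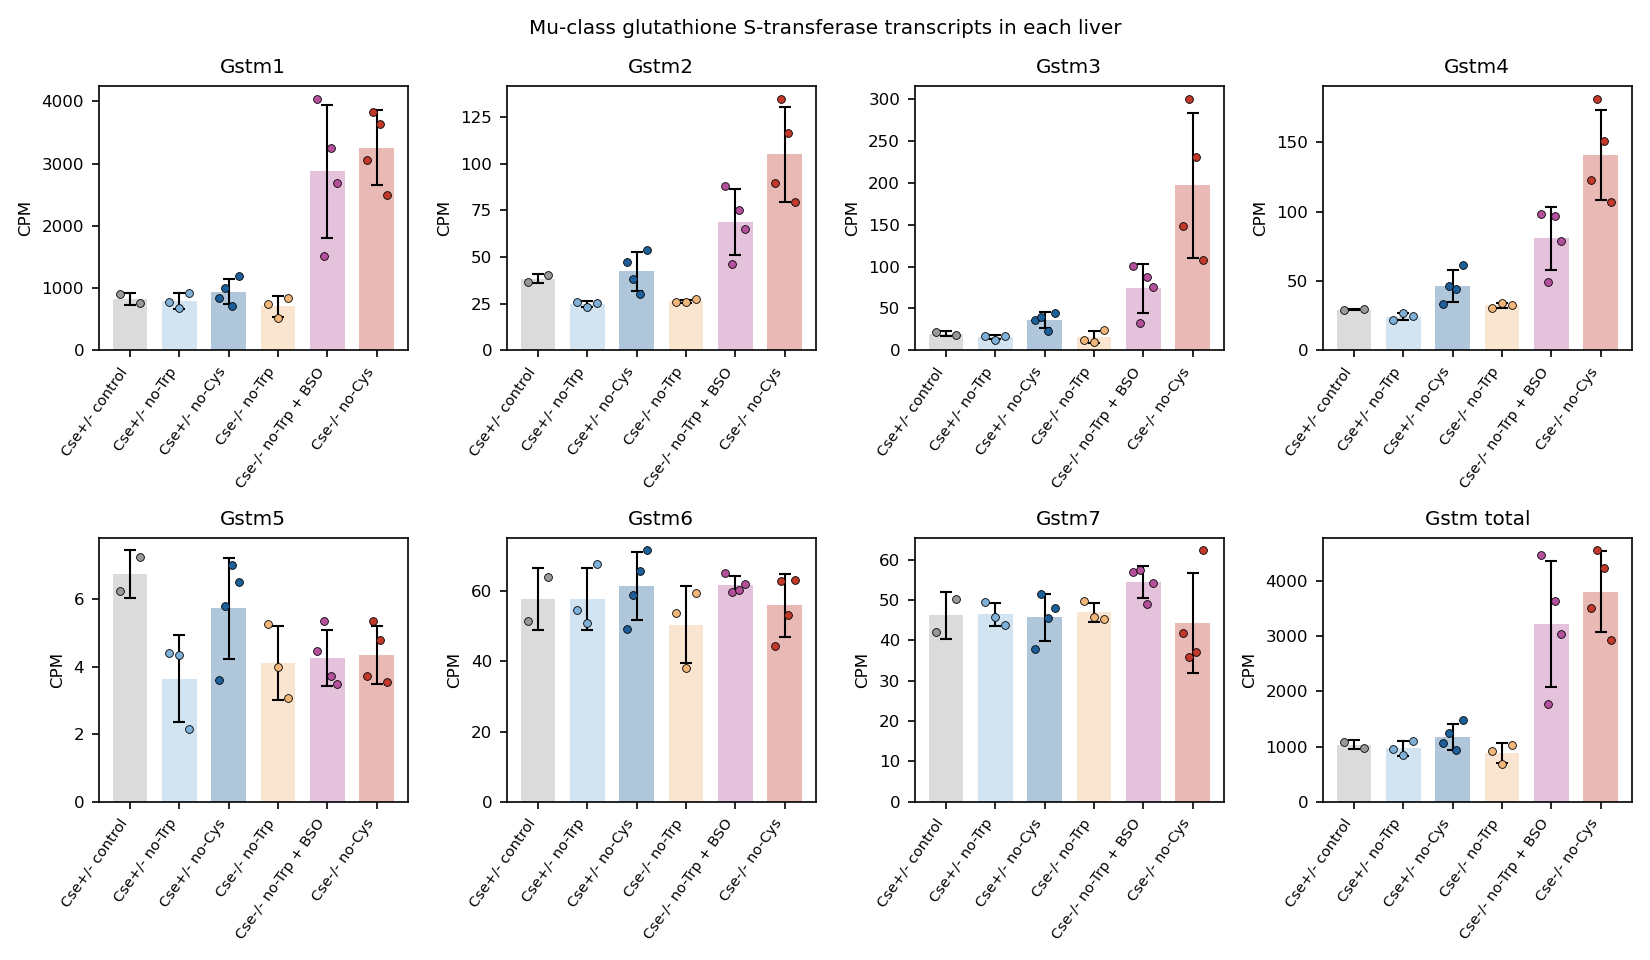
CPM (TMM-scaled counts, linear axes from 0) of the 7 members and of their sum in each of the 20 livers, by group. Points are livers, bars are group means and error bars are SD. *Gstm1* to *Gstm4* stood highest in the Cse-/- no-Cys and the Cse-/- no-Trp + BSO livers, whereas *Gstm5*, *Gstm6* and *Gstm7* showed no such steps.

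Summed over the 7 genes, the Cse+/- no-Cys livers had 934 to 1475 CPM and the Cse-/- no-Cys livers 2920 to 4556 CPM. The sum was 3.24-fold higher (2.35 to 4.48, edgeR adjusted p = 3.25e-05). Other transcripts moved in this comparison as well, and of 46 tested cell type markers 14 were called lower and 2 higher. Of 5 general hepatocyte markers, 4 were called lower, with a summed level of 35137 to 60763 CPM in the Cse-/- against 80320 to 102455 CPM in the Cse+/- no-Cys livers. The zonal hepatocyte markers did not share this fall. Of 7 pericentral ones 1 was called higher and 1 lower, with overlapping sums (11788.1 to 14604.5 against 12605.8 to 14306 CPM). Of 6 periportal ones 1, *Hsd17b13*, was called higher and 0 lower. Of 5 cholangiocyte markers, 2 were called lower, with 16.4 to 28.6 against 45.9 to 57.9 CPM in sum. All 5 red cell markers were called lower, with 69.1 to 114 against 201 to 406 CPM in sum, and no defining red cell or hepatocyte marker was at 0 in any liver. Their part in the result was not tested. In bulk RNA of a tissue, fewer cells of a type and less RNA per cell cannot be told apart.

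Within the Cse-/- genotype, the no-Cys livers were next compared with the no-Trp livers, which lacked another amino acid. The same 4 members were called higher, against 5.05% of all tested genes, and 0 lower, against 5.35% (also 4 and 0 at a raw p under 0.05 and by DESeq2). The groups of these 4 members did not overlap, as was the case for 10.2% of tested genes. *Gstm1* was at 746, 523 and 843 CPM in av14 to av16, so that the no-Cys livers were 4.63-fold higher (3.14 to 6.82, edgeR adjusted p = 7.74e-05). *Gstm3* was at 12.5, 10.3 and 24.4 CPM, which made it the member with the largest difference, 12.4-fold (6.88 to 22.5, edgeR adjusted p = 3.15e-05). Without av16, the highest of these 3 livers in *Gstm3*, its log2 fold change went from 3.64 to 4.10. *Gstm4* (30.7, 33.9 and 32.3 CPM in av14 to av16) and *Gstm2* (25.7, 26.0 and 27.3 CPM) were close together among the no-Trp livers, and were 4.36-fold (3.15 to 6.04) and 3.99-fold (2.92 to 5.43) higher in the no-Cys livers. *Gstm5*, *Gstm6* and *Gstm7* had edgeR adjusted p of 0.593 to 0.884. This comparison and the first share the Cse-/- no-Cys livers. Of the 46 tested cell type markers, 8 were lower and 0 higher in the no-Cys livers (14 lower and 2 higher at a raw p under 0.05, 10 and 1 by DESeq2). They included 3 of 5 hepatocyte markers (35137 to 60763 against 59411 to 64086 CPM in sum) and 3 of 5 red cell markers (69.1 to 114 against 119 to 184 CPM in sum), and their part in the result was not tested.

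BSO was given to Cse-/- mice on the no-Trp diet, which allows the block of GSH synthesis to be compared with the same diet without it. *Gstm1* to *Gstm4* were again the members called higher, 2.51-fold to 4.69-fold. Few other genes were: 4 of 7 members compare with 0.488% of all tested genes called higher and 0.305% called lower, and 0 members were lower (4 and 0 also at a raw p under 0.05 and by DESeq2). The groups of 5 members did not overlap, against 6.47% of tested genes. No library of this comparison is part of the comparison of genotypes on the no-Cys diet, but it shares the no-Trp livers with the comparison of no-Cys and no-Trp livers.

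*Gstm1* was at 4047, 1510, 3257 and 2690 CPM in the BSO livers av09 to av12, against at most 843 CPM in the no-Trp livers. The rise was 4.08-fold (2.78 to 6.00, log2 fold change 2.03 ± 0.27 SE, edgeR adjusted p = 0.000989). The BSO liver av09 had more *Gstm1* than any no-Cys liver, whereas av10 lay far below the other BSO livers but still above all no-Trp livers. *Gstm3* was at 101, 33.0, 87.0 and 75.7 CPM in av09 to av12 and rose 4.69-fold (2.69 to 8.19, edgeR adjusted p = 0.00662); without av15 it no longer passed the test (log2 fold change 1.999, edgeR adjusted p = 0.0525), and 3 members were called. *Gstm4* was at 98.6, 49.4, 96.8 and 78.9 CPM (2.51-fold, 1.83 to 3.44, edgeR adjusted p = 0.00436), and *Gstm2* at 88.2, 46.2, 75.1 and 65.2 CPM (2.61-fold, 1.93 to 3.54, edgeR adjusted p = 0.00241). All 4 genes ranked the BSO livers av09, av11, av12 and av10, from high to low. The sum of the 7 genes rose 3.67-fold (2.56 to 5.27, edgeR adjusted p = 0.00119).

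*Gstm6* was the fifth member whose groups did not overlap, by a narrow margin: 59.8 to 65.3 CPM in the BSO livers against 38.2 to 59.5 CPM in the no-Trp livers (1.22-fold, 0.977 to 1.53, edgeR adjusted p = 0.446). *Gstm7* (1.16-fold, 0.937 to 1.44) and *Gstm5* (1.03-fold, 0.711 to 1.496) did not pass the test either. Of 46 tested markers of liver and blood cell types, 0 were called between these groups by edgeR or by DESeq2, and at a raw p under 0.05, 6 were higher and 2 lower.

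**Figure D2:**
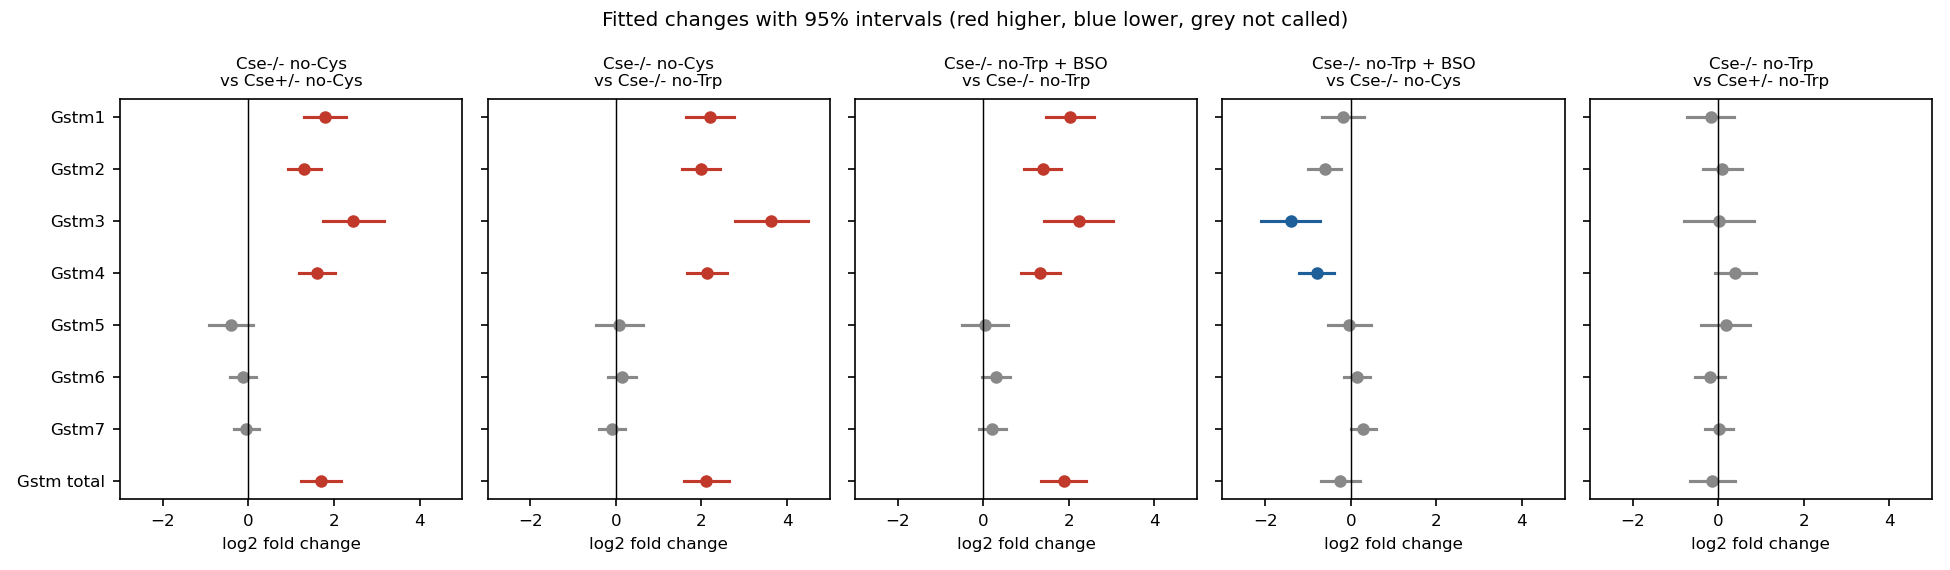
Fitted log2 fold changes (points) with 95% intervals (lines) of each member and of the sum, from 1 model of all 20 livers, in 5 comparisons. Red and blue mark genes called higher and lower at an edgeR adjusted p under 0.05. The members in red are *Gstm1* to *Gstm4* in each of the first 3 panels, of which the second shares livers with both others, and *Gstm3* and *Gstm4* are blue in the comparison of the BSO with the no-Cys livers.

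The livers with blocked GSH synthesis and those without cysteine were then set side by side, both of the Cse-/- genotype. *Gstm1* did not differ detectably between them, with a ratio of the BSO to the no-Cys livers of 0.883 (0.633 to 1.23, edgeR adjusted p = 0.704). *Gstm3* was lower in the BSO livers, at 0.377 of the no-Cys level (0.234 to 0.608, edgeR adjusted p = 0.0297), and so was *Gstm4*, at 0.575 (0.434 to 0.762, edgeR adjusted p = 0.0338). For both, the highest BSO liver was below the lowest no-Cys liver, a pattern seen for 6.42% of all tested genes. *Gstm2* had a ratio of 0.655 (0.501 to 0.856), which did not pass the adjusted test (edgeR adjusted p = 0.0747), and *Gstm7* one of 1.23 (1.009 to 1.499, edgeR adjusted p = 0.231). Of the 46 tested cell type markers, 7 were higher and 1 was lower in the BSO livers, among them 3 of 5 hepatocyte markers (55970 to 71461 against 35137 to 60763 CPM in sum) and 2 of 5 cholangiocyte markers (36.3 to 48.6 against 16.4 to 28.6 CPM in sum), and their part in the result was not tested. Thus 2 of 7 members were called lower, against 1.33% of tested genes, and 0 higher, against 1.42%. At an unadjusted p under 0.05, 3 were lower and 1 higher, and DESeq2 called 3 lower and 0 higher. The 2 calls rested on all of the livers except av08: without any 1 of av05 to av07 or av09 to av12, 0 members were called, with edgeR adjusted p of up to 0.108 for *Gstm3* and 0.122 for *Gstm4*. Without av08, 4 were, namely *Gstm2*, *Gstm3* and *Gstm4* lower and *Gstm7* higher. Calls over all tested genes moved the same way, so that this is no trait of the members. They were 210 higher and 196 lower with all livers, and 564 and 463 without av08. Without any 1 of the other livers they were 18 to 184 higher and 34 to 151 lower. The log2 fold changes of *Gstm3* stayed between -1.61 and -1.13 and those of *Gstm4* between -0.91 and -0.63.

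The members thus did not move by equal factors, which was also examined as each gene's share of all counts of the 7 genes within a liver. *Gstm1* made up 79.6% ± 1.75 (SD, n = 4) of these counts in the Cse+/- no-Cys livers and 85.7% ± 1.24 (SD, n = 4) in the Cse-/- no-Cys livers. The share of *Gstm3* went from 3.03% ± 0.423 to 4.99% ± 1.30, whereas that of *Gstm2* went from 3.61% ± 0.634 to 2.74% ± 0.170 although its level rose. *Gstm6* went from 5.34% ± 1.14 to 1.52% ± 0.435 and *Gstm7* from 3.96% ± 0.706 to 1.25% ± 0.617. Since *Gstm1* holds most of the counts, a rise of *Gstm1* lowers the shares of members whose levels stay as they are, so that the tests of shares for *Gstm5*, *Gstm6* and *Gstm7* are no test of these genes' levels. For these 5 genes and for *Gstm5* the shares of the groups did not overlap, which gives an exact two-sided permutation p of 0.0286, the smallest that 4 against 4 livers allow. Adjusted over the 14 tests of shares this is 0.05, which equals the threshold and is not under it. With counts divided by each gene's unshared 61-base words, the adjusted p of the same 6 genes was 0.0444, but the difference for *Gstm1* shrank from 6.08 to 3.52 percentage points (82.5% ± 1.15 and 86.0% ± 1.57, SD, n = 4). For *Gstm4* no difference in share was detected (3.94% ± 0.655 and 3.69% ± 0.212, exact p = 0.486). In the BSO livers *Gstm3* made up 2.26% ± 0.275 and *Gstm4* 2.57% ± 0.256 of the counts, both below every no-Cys liver (exact p = 0.0286, adjusted p = 0.05), and *Gstm1* 88.8% ± 2.16 (exact p = 0.0857 against the no-Cys livers). With unshared words the last difference went from 3.05 to 4.05 percentage points (exact p = 0.0286, adjusted p = 0.0444).

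**Figure D3:**
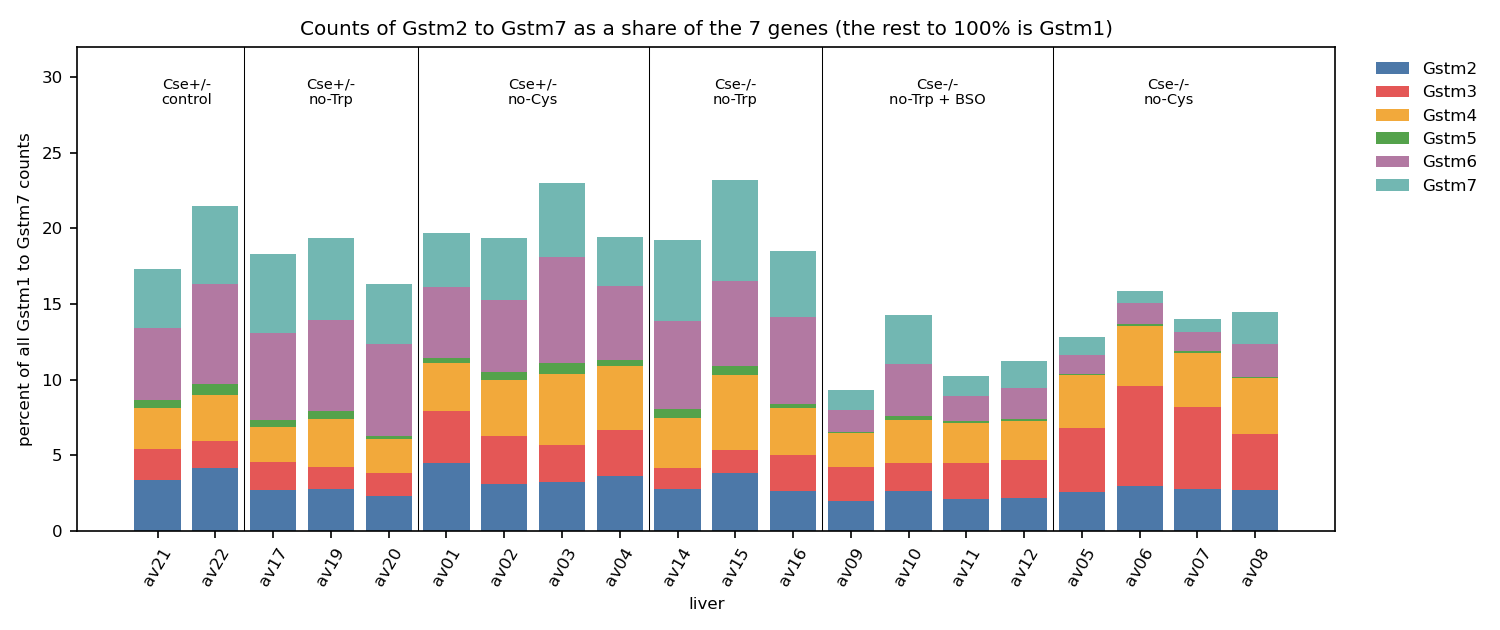
Counts of *Gstm2* to *Gstm7* in each liver as a percentage of the counts of all 7 genes, stacked from 0, with *Gstm1* as the remainder to 100%. The bars of *Gstm6* and *Gstm7* are thinner in the Cse-/- no-Cys livers and in the BSO livers other than av10, and that of *Gstm3* is widest in the Cse-/- no-Cys livers.

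Genotype was also compared on the no-Trp diet, on which both genotypes have cysteine in their food. Between Cse-/- and Cse+/- livers, 0 of 7 members were called, against 2.64% of tested genes in either direction (0 also at a raw p under 0.05 and by DESeq2). *Gstm1* was at 774, 682 and 927 CPM in the Cse+/- no-Trp livers av17, av19 and av20, and the ratio of Cse-/- to Cse+/- was 0.887 (0.604 to 1.30, edgeR adjusted p = 0.777). *Gstm4* was at 21.7, 26.9 and 24.5 CPM in the Cse+/- no-Trp livers, all below the Cse-/- no-Trp livers, but the ratio of 1.32 (0.948 to 1.84) did not pass the test (edgeR adjusted p = 0.364). *Gstm2* did not overlap either, by less than the rounding of its values (25.7 CPM in the lowest Cse-/- and the highest Cse+/- liver), and 10.1% of all tested genes were apart in this way. The lower bound for *Gstm3* was 0.571 and the upper bound 1.79, so that a change of the size seen on the no-Cys diet lies outside this interval. A test of the difference itself, the interaction of genotype and diet over the no-Cys and no-Trp groups, called *Gstm1* (log2 difference 1.97 ± 0.36 SE, edgeR adjusted p = 0.00410), *Gstm3* (2.44 ± 0.52, edgeR adjusted p = 0.0114), *Gstm2* (1.22 ± 0.29, edgeR adjusted p = 0.0210) and *Gstm4* (1.20 ± 0.30, edgeR adjusted p = 0.0283). These 4 of 7 higher calls compare with 1.67% of tested genes, and 0 lower calls with 2.69% (4 and 0 also at a raw p under 0.05 and by DESeq2). Of the 46 tested cell type markers, the interaction called 1 higher and 3 lower, with 2 of 5 hepatocyte markers (*Alb* and *Ttr*) among the lower, and their part in the result was not tested. The call of *Gstm4* was lost without av02, av06, av07, av14, av16, av19 or av20, each time with 3 members called and an edgeR adjusted p of up to 0.0655. The interaction of *Gstm5* (-0.58 ± 0.37), *Gstm6* (0.05 ± 0.22) and *Gstm7* (-0.06 ± 0.21) did not pass the test.

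In Cse+/- livers, *Gstm1* was at 899 and 763 CPM on the control diet, and the no-Cys diet gave a ratio to these 2 livers of 1.13 (0.749 to 1.70, edgeR adjusted p = 0.808). *Gstm3* was at 21.8 and 17.7 CPM and *Gstm4* at 29.4 CPM in both control livers, below all 4 Cse+/- no-Cys livers, with ratios of 1.81 (0.973 to 3.38, edgeR adjusted p = 0.326) and 1.58 (1.10 to 2.27, edgeR adjusted p = 0.182). Of all tested genes, 13.2% were apart in this direction. By edgeR 0 members were called, against 2.18% of tested genes in either direction; 1 was higher at a raw p under 0.05, and DESeq2 called 0. On the no-Trp diet 0 members were called against the control diet by edgeR or DESeq2, where 0.0474% of tested genes were called, and 2 were lower at a raw p under 0.05. These were *Gstm5*, at 4.41, 4.35 and 2.15 CPM against 6.25 and 7.24 CPM (ratio 0.541, 0.349 to 0.838, edgeR adjusted p = 0.346), and *Gstm2*, at 25.7, 23.1 and 25.6 CPM against 36.6 and 40.2 CPM (ratio 0.644, 0.454 to 0.914, edgeR adjusted p = 0.422). *Gstm3* and *Gstm4* were also below both control livers in every no-Trp liver, which makes 4 of 7 members apart, against 14.6% of all tested genes.

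Across the 6 groups, the mean level of *Gstm1* thus ran from 3258 ± 605 CPM (SD, n = 4) in the Cse-/- no-Cys and 2876 ± 1067 (SD, n = 4) in the BSO livers to 939 ± 202 (SD, n = 4) in the Cse+/- no-Cys, 831 ± 95.8 (SD, n = 2) in the control, 794 ± 124 (SD, n = 3) in the Cse+/- no-Trp and 704 ± 164 (SD, n = 3) in the Cse-/- no-Trp livers. The only neighbours in this order whose ranges did not overlap were the BSO and the Cse+/- no-Cys livers. For *Gstm3*, the Cse-/- no-Cys livers (197 ± 86.2 CPM) were apart from the BSO livers (74.1 ± 29.3), the BSO livers overlapped the Cse+/- no-Cys livers (35.9 ± 9.43) through av10, and these were above the control livers (19.8 ± 2.93). *Gstm4* followed the same order at the top, with 141 ± 32.7, 80.9 ± 22.8 and 46.3 ± 11.8 CPM. For *Gstm5*, *Gstm6* and *Gstm7* all neighbouring ranges overlapped, and over the 20 livers the highest level was 1.74 times the lowest for *Gstm7*, 1.88 times for *Gstm6* and 3.37 times for *Gstm5*. It was 5.84 times for *Gstm2*, 7.73 times for *Gstm1*, 8.38 times for *Gstm4* and 29.2 times for *Gstm3*.

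The 4 genes that rose are the ones that stand next to each other, *Gstm3*, *Gstm2*, *Gstm1* and *Gstm4*, at one end of the cluster, and *Gstm5*, *Gstm7* and *Gstm6* stand at the other. Of 30 other genes that start within 200 kb of the cluster, 10 were tested. In the comparison of genotypes on the no-Cys diet 0 of the 10 were called higher (also 0 at a raw p under 0.05 and by DESeq2), and 1 was called lower: *Csf1*, the gene for a growth factor of macrophages (log2 fold change -0.69 ± 0.18 SE, edgeR adjusted p = 0.0103). With 11.6% of all tested genes higher and 12.2% lower, so few calls among 10 genes do not set the neighbours apart from other genes. *Ampd2*, an AMP deaminase and the nearest tested gene beyond *Gstm4*, had a log2 fold change of -0.17 ± 0.10 (edgeR adjusted p = 0.253). With BSO 0 of the 10 were called by edgeR or DESeq2, with 2 higher and 1 lower at a raw p under 0.05, and *Ampd2* had a log2 fold change of 0.33 ± 0.11 (edgeR adjusted p = 0.179). The other tested neighbours were *Ahcyl1*, 4933431E20Rik, Gm12500, *Gnat2*, *Gnai3*, *Amigo1*, *Cyb561d1* and *Atxn7l2*. Their log2 fold changes between genotypes lay between -0.44 ± 0.35 in Gm12500 and 0.35 ± 0.17 in *Cyb561d1*, and Gm12500 had the highest with BSO, 1.27 ± 0.38 (edgeR adjusted p = 0.12). *Csf1* was also lower in Cse-/- no-Cys than no-Trp livers (-0.89 ± 0.19, edgeR adjusted p = 0.00665), against 5.35% of all tested genes. *Ampd2* was called higher in Cse+/- no-Cys than control livers (0.64 ± 0.13, edgeR adjusted p = 0.0135), against 2.18% in either direction, a call lost without av21 or av22.

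**Figure D4:**
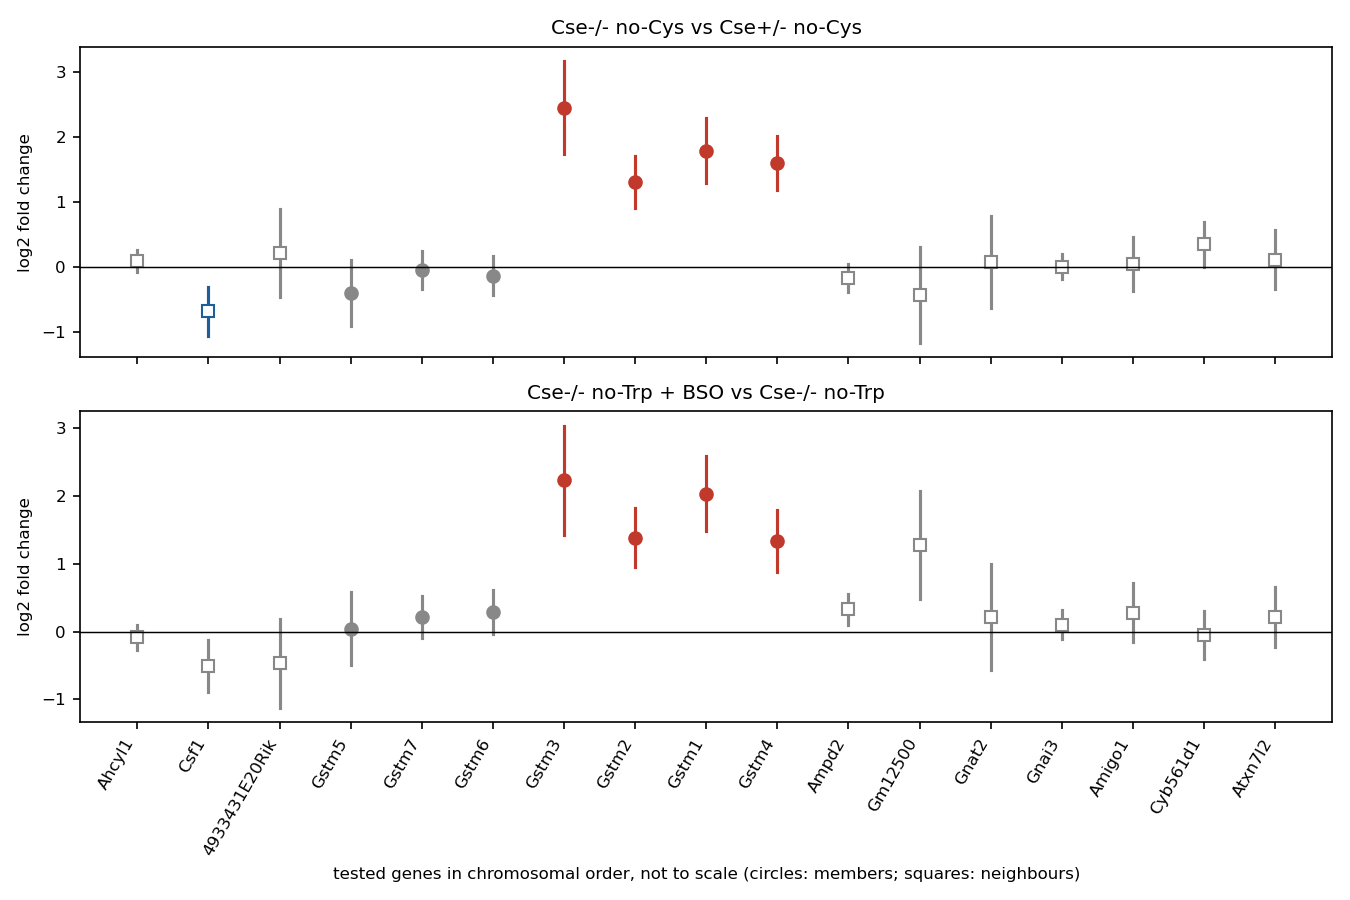
Log2 fold changes with 95% intervals of all tested genes of the region in chromosomal order (not to scale), for the comparison of genotypes on the no-Cys diet (top) and of BSO with no BSO (bottom). Circles are members and squares are neighbours, with red for called higher and blue for called lower. The 4 red circles are adjacent.

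Of the other rows named after the family, only *Gstm2-ps1* (ENSMUSG00000107369, chr5:116632908-116633564) was tested. It had 384 to 9166 counts per library, equal to 3.81% to 5.28% of those of *Gstm1* in every liver, and 38.2% of its 61-base words occur in other genes, most of them in *Gstm1*. It rose 3.61-fold (2.67 to 4.88) in the Cse-/- against the Cse+/- no-Cys livers and 4.19-fold (2.99 to 5.87) with BSO. How many of these reads came from *Gstm1* was not tested. The unprocessed pseudogenes Gm12494 and Gm12499 inside the cluster, which share words with *Gstm6* and *Gstm2*, had at most 5 counts in any library.

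Since *Gstm1* to *Gstm4* moved together, the 250 bases before their annotated starts are of interest. RefSeq (GRCm38.p6) gives 12 such windows for the 7 members, all matched by symbol. They were searched on both strands for the core of the antioxidant response element bound by NRF2 (TGACNNNGC), a composite core bound by ATF4 (TGATGNAA) and a TATA box (TATAAA). The motifs do not overlap each other in these windows. The parts upstream of every annotated exon are printed for the 4 rising genes, all on the minus strand: chr3:108017974-108018223 for *Gstm1*, chr3:107986454-107986670 for *Gstm2*, chr3:107969284-107969424 for *Gstm3* and chr3:108044895-108045109 for *Gstm4*. Capitals would mark a match, and there is none.
Gstm1: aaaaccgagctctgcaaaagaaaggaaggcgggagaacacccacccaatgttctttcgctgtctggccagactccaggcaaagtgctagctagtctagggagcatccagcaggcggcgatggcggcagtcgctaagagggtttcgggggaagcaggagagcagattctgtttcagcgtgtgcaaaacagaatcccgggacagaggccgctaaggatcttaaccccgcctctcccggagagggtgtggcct
Gstm2: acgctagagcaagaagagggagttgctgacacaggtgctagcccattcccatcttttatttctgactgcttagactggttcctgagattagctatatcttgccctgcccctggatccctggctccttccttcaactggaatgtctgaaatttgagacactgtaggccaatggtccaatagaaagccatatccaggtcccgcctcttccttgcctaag
Gstm3: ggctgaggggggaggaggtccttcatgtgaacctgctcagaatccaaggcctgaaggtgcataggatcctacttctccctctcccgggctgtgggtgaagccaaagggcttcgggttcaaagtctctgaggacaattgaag
Gstm4: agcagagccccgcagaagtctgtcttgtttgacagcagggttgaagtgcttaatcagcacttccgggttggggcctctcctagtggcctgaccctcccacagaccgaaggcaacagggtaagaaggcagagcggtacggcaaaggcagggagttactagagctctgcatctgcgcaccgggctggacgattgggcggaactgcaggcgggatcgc

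The core of the antioxidant response element was found in 2 of the 12 windows, and both belong to members that were not called in the comparisons above. It lies 42 bases before the start of *Gstm5* and 129 bases before 1 of the starts of *Gstm7*. Of 32851 windows of the same length before all genes, 10.2% hold this core. The 30 bases around each match are shown with the core in capitals, at chr3:107895802-107895831 on the plus strand for *Gstm5* and at chr3:107931724-107931753 on the minus strand for *Gstm7*.
Gstm5: caccgcccacTGACCACGCggagggcgggt
Gstm7: tctgaagaccTGACAAAGCgaagccaatcc

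A TATA box was found 30 bases before 1 of the starts of *Gstm1* and 231 bases before the other start of *Gstm7*, against 12.4% of all windows. The composite core was found in 0 of the 12 windows and in 3.45% of all windows. A match is a run of letters, not a measured binding site, and these windows do not cover distant regulatory sequence.

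The other glutathione transferases, of the alpha, pi, theta, omega, zeta, kappa and microsomal classes, give a wider view of this enzyme family. Of 20 such genes, 17 were tested, and in the Cse-/- against the Cse+/- no-Cys livers 4 were called higher and 2 lower, and the median log2 fold change was 0.19 against -0.01 over all tested genes. The shares of all tested genes, 11.6% higher and 12.2% lower, show that the lower calls are about as frequent as elsewhere. The largest changes were those of the alpha-class genes *Gsta1* (from 0.697 ± 0.162 to 6.13 ± 3.68 CPM, SD, n = 4, log2 fold change 3.11 ± 0.44 SE, edgeR adjusted p = 6.02e-05) and *Gsta2* (from 11.6 ± 3.60 to 86.6 ± 21.0 CPM, SD, n = 4, log2 fold change 2.90 ± 0.32 SE, edgeR adjusted p = 4.49e-06). The lower calls were *Gstt1*, of the theta class (log2 fold change -0.75 ± 0.17 SE), and *Mgst1*, a microsomal transferase (-0.35 ± 0.12 SE). With BSO, 3 of the 17 were called higher and 0 lower, against 0.488% and 0.305% of all tested genes (6 and 0 at a raw p under 0.05, 4 and 0 by DESeq2), with a median of 0.17. They were the pi-class gene *Gstp2* (log2 fold change 2.14 ± 0.48 SE, edgeR adjusted p = 0.0388), *Gsta2* (1.72 ± 0.33 SE, edgeR adjusted p = 0.0137) and *Gstp1* (1.67 ± 0.28 SE, edgeR adjusted p = 0.00570), the last of which was named after its values were seen. *Gstp2* was at low levels, 0.978 ± 0.726 CPM (SD, n = 3) without and 4.36 ± 1.34 CPM (SD, n = 4) with BSO. The alpha-class and the pi-class genes are also near copies of one another, so that the split of reads among them is uncertain. Without av09, av15 or av16 the count was 1.

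**Figure D5:**
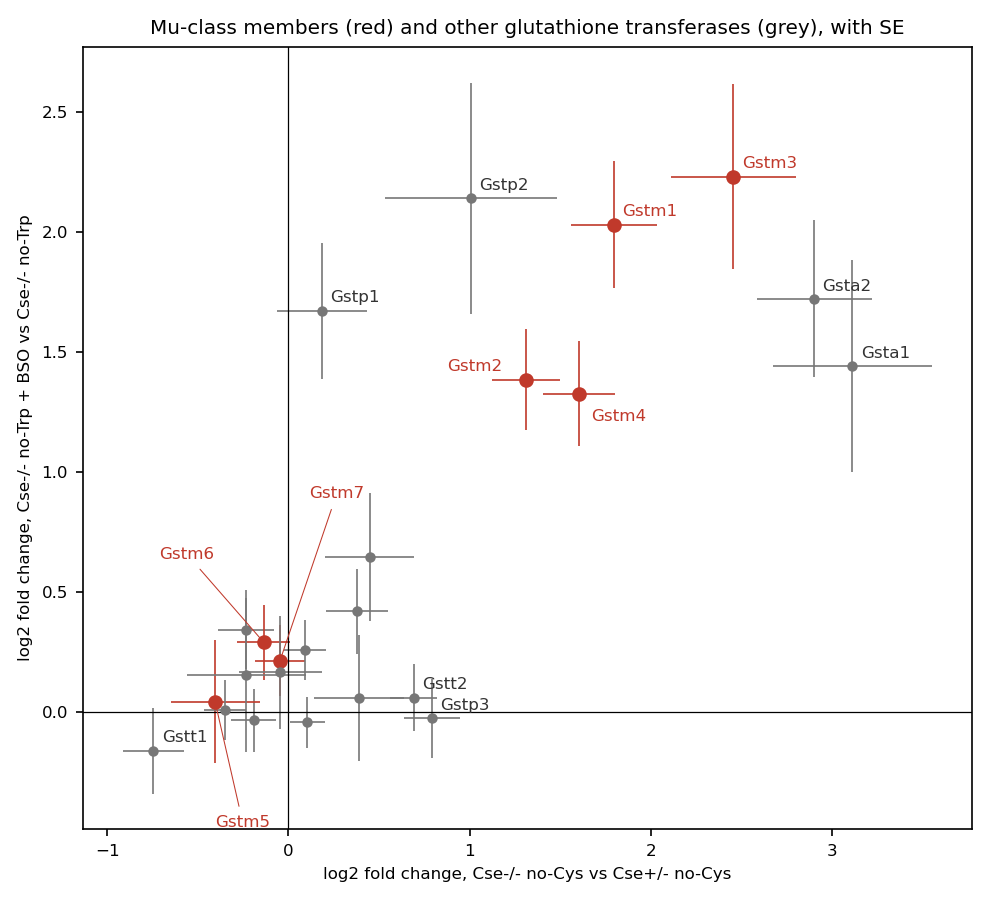
Log2 fold change in Cse-/- against Cse+/- no-Cys livers (x axis) and with BSO against without it in Cse-/- no-Trp livers (y axis), for the 7 members (red) and 17 other glutathione transferases (grey), with SE as error bars. Names are given for the members and for the genes farthest from 0. *Gstm1* to *Gstm4* are high on both axes, and *Gstm5* to *Gstm7* lie near the origin on both.

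Genes that make, export and process GSH conjugates were examined as a list of 17, of which 15 were tested. On the no-Cys diet 4 were called higher, against 11.6% of all tested genes, and 2 lower, about as often as the 12.2% of all tested genes. The higher ones were led by the export pumps *Abcc4* (log2 fold change 2.75 ± 0.27 SE, edgeR adjusted p = 1.78e-06) and *Abcc3* (1.41 ± 0.13 SE, edgeR adjusted p = 8.70e-07). The lower ones were *Acy3*, an aminoacylase that acts on mercapturic acids (-0.58 ± 0.19 SE), and the peptidase *Anpep* (-0.47 ± 0.12 SE). With BSO 3 were higher and 0 lower, against 0.488% and 0.305% of all tested genes (7 and 0 at a raw p under 0.05, 6 and 0 by DESeq2), with *Gsr*, which reduces oxidized glutathione (0.90 ± 0.15 SE, edgeR adjusted p = 0.00507), and *Gclc*, a subunit of the enzyme that BSO inhibits (0.88 ± 0.19 SE, edgeR adjusted p = 0.0315), ahead. The count was 1 without av09, av11, av12 or av14, and 5 without av10.

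Of 19 genes of the NRF2 pathway, which include its classical targets, 18 were tested. In the Cse-/- against the Cse+/- no-Cys livers 12 were called higher and 3 lower (12 and 2 by DESeq2), and the median log2 fold change was 0.57 against -0.01 over all tested genes. Of all tested genes 11.6% were higher and 12.2% lower. The targets *Cbr3*, a carbonyl reductase (2.92 ± 0.38 SE, edgeR adjusted p = 2.78e-05), and *Nqo1*, a quinone reductase (2.29 ± 0.25 SE, edgeR adjusted p = 4.49e-06), rose most. The lower calls included *Akr1b8* (-0.65 ± 0.23 SE, from 2.26 ± 0.182 to 1.43 ± 0.325 CPM, SD) and *Nfe2l2*, the gene of NRF2 itself (-0.41 ± 0.12 SE). *Nfe2l2* was at 57.6 ± 5.76 CPM in the Cse-/- and 76.6 ± 9.34 in the Cse+/- no-Cys livers, against 48.2 ± 5.63 in the 2 control livers (SD). In Cse+/- livers it was called higher on the no-Cys than on the control diet (0.67 ± 0.15 SE, edgeR adjusted p = 0.0201), as was *Me1* (1.22 ± 0.27 SE). These 2 calls, against 2.18% of all tested genes in either direction, were lost without av02, av21 or av22. With BSO 7 of the 18 genes were higher and 0 lower, against 0.488% and 0.305% of all tested genes (12 and 0 at a raw p under 0.05, 8 and 0 by DESeq2), again led by *Cbr3* (1.92 ± 0.40 SE) and *Nqo1* (1.87 ± 0.26 SE), and 4 without av09 or av15. Of 7 markers of the nuclear receptors CAR and PXR, 6 were tested: 0 were called higher and 1, *Cyp2c55*, lower on the no-Cys diet (-1.40 ± 0.48 SE, edgeR adjusted p = 0.0417), against 12.2% of all tested genes, where 1 was higher and 2 were lower both at a raw p under 0.05 and by DESeq2. The count of 1 became 0 without av05 and 2 without av08. *Cyp2c55* itself was at low levels, 0.569 ± 0.243 CPM in the Cse-/- against 1.48 ± 0.750 CPM in the Cse+/- no-Cys livers (SD, n = 4), and these groups overlapped. *Cyp2b9*, named after its values were seen, had a ratio of 6.29 in the other direction (1.57 to 25.1, edgeR adjusted p = 0.0501). In Cse-/- against Cse+/- no-Trp livers it was called higher (40.5-fold, 6.35 to 258, edgeR adjusted p = 0.0329), a call that was lost, with 0 genes of the list called, without av15, av17 or av19. Of all tested genes, 2.64% were called there in either direction. The SD of *Cyp2b9* was about as large as its mean: 138 ± 147 against 3.61 ± 4.06 CPM (n = 3) on the no-Trp diet. On the no-Cys diet it was at 111 ± 149 against 17.4 ± 16.0 CPM (SD, n = 4). With BSO 0 of the CAR and PXR markers were called by edgeR, with 2 lower at a raw p under 0.05 and 1 lower by DESeq2.

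The genes whose levels ran most like those of each member over the 20 livers were ranked by Pearson's r of log2 CPM, as a description. The livers fall into groups with high and low levels of the rising members, so that r reflects this division as well. How much of r it makes up was not tested. For *Gstm1* these were *Gstm2-ps1* (r = 0.99), *Ephx1* (0.98), *Pgrmc1* (0.97), *Aox1* (0.96) and *Pir* (0.96). For *Gstm2* they were *Gstm2-ps1* (0.95), Gm6665 (0.95), *Psmd3* (0.94), *Ephx1* (0.93) and *Fth1* (0.92), and for *Gstm3* *Gstm2-ps1* (0.96), *Ephx1* (0.95), *Fth1* (0.92), *Psmd3* (0.92) and *Abca8b* (0.91). For *Gstm4* they were *Psmd3* (0.97), *Nsfl1c* (0.96), *Ephx1* (0.96), *Vars* (0.94) and *Ftl1* (0.94). *Ephx1*, the microsomal epoxide hydrolase, was thus among the 5 nearest genes of each rising member, while *Psmd3* encodes a subunit of the proteasome and *Fth1* and *Ftl1* the chains of ferritin. Reads of Gm6665 may overlap with those of *Gstm2*, with which it shares 17 words. The nearest genes were less close for the other members: *Fbln1* (0.84), *Fibp* (0.78), *Blvra* (0.77), *Reln* (0.76) and *Mecr* (0.75) for *Gstm5*, *Map2k3os* (0.87), *Mcm3* (0.78), *Ces1c* (0.77), *Txndc5* (0.75) and *Rps19bp1* (0.75) for *Gstm6*, and *Gjb1* (0.82), *Ldhd* (0.80), *Copz1* (0.78), *Chst12* (0.76) and *Hdac3* (0.75) for *Gstm7*. Among the members, r was 0.93 to 0.97 for pairs of *Gstm1* to *Gstm4* and -0.17 to 0.33 for all pairs that include *Gstm5*, *Gstm6* or *Gstm7*.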

How the data were processed

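Liver RNA was measured by sequencing of polyadenylated transcripts from paired ends of 61 bases. The authors aligned reads with HISAT2 2.1.0 to GRCm38 and deposited raw counts per Ensembl gene made with HTSeq 0.11.0. Which annotation release served for counting was not given in the sources used here. Of 21 columns, 1 could not be tied to a group and was not used. The other columns carry mouse numbers, which the list of mice of the study places in the groups of the sample labels. In pairs of libraries of a group, counts differed well beyond sampling noise (lowest chi-square per gene 9.60), so no library was counted as a duplicate.

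Counts were scaled with TMM factors and tested with edgeR 4.0.16 (quasi-likelihood, 1 fit of 6 groups) in R 4.3.3. Of 46078 genes, 14759 passed filterByExpr (minimum count 10, minimum total 15). P-values were adjusted by Benjamini-Hochberg over all of these, with a threshold of 0.05. Shares of counts were compared with exact two-sided permutation tests. Alternatives were DESeq2 1.42.0, other scaling, filters and thresholds, thinning to 11785740 counts, fits of only the groups compared, and leaving out each library. Likeness used log2 CPM with a prior count of 2. Intervals are 95%.

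The members and lists were chosen with earlier results of these data known. Named were all members, all tested neighbours within 200 kb, other rows named after the family, the 5 genes most like each member and, of each list, the 2 called genes with the largest change each way.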

Additional observations from a re-analysis of the deposited data

Results flagged for a closer look

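In 4 of 45 sets of 4 livers, 1 liver stood far from the other 3 by Dixon's criterion, and chance alone gives about 1 in 20. Among the Cse+/- no-Cys livers, av03 had the lowest share of *Gstm1* in the counts of the 7 genes, 77.0%, and the highest share of *Gstm6*, 7.04%. Among the Cse-/- no-Cys livers, av08 had the highest share of *Gstm6*, 2.17%. Among the BSO livers, av10 had the highest share of *Gstm5*, 0.304%. In each of these livers *Gstm1* was at the lowest level of its group.

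The effect of genotype differed between the no-Cys and the no-Trp diet for 4 members and for the sum, by the interaction test of edgeR. The differences in log2 fold change were 2.44 for *Gstm3*, 1.97 for *Gstm1*, 1.22 for *Gstm2*, 1.20 for *Gstm4* and 1.83 for the sum of the 7 genes.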

How the results depend on the processing

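No paired analysis was possible because the columns carry mouse numbers that cannot be tied to the replicate numbers of the labels. The counts of called members in both no-Cys comparisons and with BSO against no-Trp were 4 under all scaling, filter, thinning, threshold and DESeq2 alternatives. Against the no-Cys livers, the BSO livers had 2 called members, 1 when the fit held only these groups and 0 at an adjusted p under 0.01, and the interaction had 4, of which 1 passed 0.01. With counts divided by unshared words, the share of *Gstm1* differed by 3.52 percentage points between genotypes on the no-Cys diet and by 4.05 between BSO and no-Cys livers, both with an adjusted exact p of 0.0444, which *Gstm2*, *Gstm3*, *Gstm5*, *Gstm6* and *Gstm7* also reached in the first and *Gstm3* and *Gstm4* in the second. The interaction of *Gstm2* lost its call after thinning (1.12). Leaving out 1 library at a time, called members ranged from 4 to 4 between genotypes on the no-Cys diet and between no-Cys and no-Trp, from 3 to 4 with BSO, from 0 to 4 between BSO and no-Cys, from 3 to 4 for the interaction and from 0 to 0 elsewhere. The log2 fold change of the sum ranged from 1.59 to 1.82 between genotypes on the no-Cys diet, from 1.95 to 2.24 between no-Cys and no-Trp, from 1.67 to 2.06 with BSO, from -0.44 to -0.05 between BSO and no-Cys, from -0.27 to 0.01 between genotypes on the no-Trp diet, from 0.06 to 0.29 and from -0.20 to 0.01 for the no-Cys and no-Trp diets against control, and from 1.68 to 1.96 for the interaction. The share difference of *Gstm1* ranged from 5.20 to 6.59 and from 2.40 to 4.06. The cause of these changes was not tested. Control groups of 2 and 3 livers and the 40 to 255 counts of *Gstm5* limit what could be detected.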
